A study of Homo sapiens with 6 samples.

Results

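The proteasome genes examined here encode the subunits of the proteasome and the chaperones that assemble it, in cells of the human hepatocellular carcinoma line MHCC97-H. Members were the genes whose symbol consists of PSM, a letter from A to G and a number, and which held at least 60 counts summed over the 6 libraries. This gave 46 of the 62710 genes in the count table. They comprise 17 core genes (7 alpha and 10 beta), 20 cap genes (6 ATPase and 14 other), 4 activators, 1 inhibitor and 4 core assembly chaperones. Of the 48 genes with such a symbol, PSMA8 and PSMB11, core subunits known from testis and thymus, were at 0 counts in every library. Polyadenylated RNA was sequenced from 3 groups of 2 libraries each. The groups were cells given 40 µM chloroquine for 16 h, cells given 0.2 mM melatonin for 16 h, and untreated cells labelled as wild type. Chloroquine was used in the study to block autophagy, and melatonin to lower endoplasmic reticulum stress. No vehicle-treated group was analysed here, the line is a single cell line, and nothing in the labels tells whether both libraries of one group were grown as separate cultures. The p-values therefore measure the spread between these libraries, which may be technical. For each gene that spread was estimated largely from the trend over all genes tested.

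The proteasome is the protease that degrades most ubiquitin-tagged proteins of the cytosol and nucleus. Its barrel-shaped core is built of outer rings of alpha subunits and inner rings of beta subunits, and only PSMB5, PSMB6 and PSMB7 of the standard beta subunits carry the active sites. Interferon-induced PSMB8, PSMB9 and PSMB10 can take the places of PSMB5, PSMB6 and PSMB7 and change the peptides that are cut for display on class I molecules. The cap binds ubiquitin chains, removes them and unfolds the substrate with a ring of ATPases before it enters the core. When proteasome activity is short, the transcription factor NFE2L1 is known to raise the transcription of the subunit genes together, through antioxidant response elements in their promoters.

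The libraries held between 15993730 and 23311452 counts, and the members took 0.616 and 0.616% of them with chloroquine, 0.616 and 0.617% with melatonin and 0.627 and 0.639% in untreated cells. Of 10 hepatocyte markers, only HNF4A exceeded 1 normalised CPM (counts scaled to a common library size with TMM factors), and APOB, TTR and FGB were at 0, so hepatocyte markers were near absent from these cells labelled as liver carcinoma. All 6 markers of simple epithelium exceeded 1 CPM, and their summed level was 2282 to 2328 CPM with chloroquine, 1458 to 1520 CPM with melatonin and 2916 to 3028 CPM in untreated cells. The keratins KRT7, KRT8 and KRT18 made up nearly all of that sum, and they and KRT19 had lower means with melatonin. EPCAM and SOX9 did not, with means of 9.51 and 1.94 CPM with melatonin, against 9.05 and 1.54 CPM untreated. Leukocyte markers summed to 5.32 to 7.44 CPM with chloroquine, 5.43 to 6.94 CPM with melatonin and 7.41 to 8.46 CPM in untreated cells, with PTPRC at 3 counts over all libraries. The 6 fibroblast markers summed to at most 26.9 CPM in any library and the 4 endothelial markers to at most 6.85 CPM. The part of these differences in the proteasome results was not tested.

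Promoter sequence is shown for 4 genes, since the members moved in part together and the known route to joint control runs through motifs at their start sites. PSMB9 had the highest fold change with melatonin among the members, and PSMB3, PSMB5 and PSMC3 were among the genes that fell most. The sequences are from RefSeq on GRCh38.p14, read in the direction of the gene and limited to the bases that lie in no annotated exon. Capitals mark the antioxidant response element core TGACNNNGC, the CCAAT box and the ETS core CCGGAA, each found on either strand.
PSMB9, chr6:32853979-32854147, plus strand: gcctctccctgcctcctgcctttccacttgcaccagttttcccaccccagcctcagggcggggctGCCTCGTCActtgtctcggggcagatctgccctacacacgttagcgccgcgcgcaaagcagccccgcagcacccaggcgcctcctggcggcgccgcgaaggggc
PSMB3, chr17:38752491-38752735, plus strand: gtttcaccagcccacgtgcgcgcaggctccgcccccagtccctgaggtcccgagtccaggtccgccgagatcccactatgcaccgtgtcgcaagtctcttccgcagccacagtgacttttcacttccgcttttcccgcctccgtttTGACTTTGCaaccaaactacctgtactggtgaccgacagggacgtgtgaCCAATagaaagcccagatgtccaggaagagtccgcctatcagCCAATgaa
PSMB5, chr14:23035231-23035470, minus strand: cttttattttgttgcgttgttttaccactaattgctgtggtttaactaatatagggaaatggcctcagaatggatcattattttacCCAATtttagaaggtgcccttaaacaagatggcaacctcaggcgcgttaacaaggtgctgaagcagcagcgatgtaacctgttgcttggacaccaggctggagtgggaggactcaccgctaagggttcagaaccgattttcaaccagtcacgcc
PSMC3, chr11:47426474-47426689, minus strand: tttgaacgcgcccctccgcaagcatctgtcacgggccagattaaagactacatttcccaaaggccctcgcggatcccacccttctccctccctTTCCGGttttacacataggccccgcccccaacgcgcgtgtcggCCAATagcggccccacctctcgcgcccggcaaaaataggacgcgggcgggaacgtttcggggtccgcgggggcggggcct

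The PSMB9 stretch held an antioxidant response element core on the opposite strand, its outermost base 148 bases before the start. PSMB3 held one at 104 bases and CCAAT boxes at 55 and 13 bases. The PSMB5 stretch held a CCAAT box at 164 bases and neither of the other motifs. PSMC3 held a CCAAT box at 114 bases and, on the opposite strand, an ETS core at 157 bases. PSMB8 and PSMB10, the members that fell most with melatonin, held none of the 3 motifs in their windows and are not printed. Windows of 250 bases before the start could be searched for 40 of the 46 members, and no entry was found for PSMA7, PSMB1, PSMB6, PSMB7, PSMD4 and PSMG3. The antioxidant response element core was in 11 of the 40 windows (27.5%), against 10.9% of all 35116 promoter windows in the table. The ETS core was in 15 (37.5%), against 14.5%, and the CCAAT box in 17 (42.5%), against 32%. Member windows were taken once per gene. The 35116 windows were all entries of full length, neither taken once per gene nor limited to tested genes. The shares are therefore of unlike sets, and enrichment was not tested. Overlap between motifs was allowed, and a match describes the letters only.

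With melatonin, the standard beta ring fell as a whole. All 7 of PSMB1 to PSMB7 were called lower than in untreated cells, with a median log2 fold change of -0.41. A gene is called here when its p from the edgeR quasi-likelihood test, adjusted by Benjamini-Hochberg over the 16877 genes tested, is under 0.05, and all 46 members passed the filter on low counts. Over the whole group, 24 of 46 members (52.2%) were called lower, where 26.5% of all tested genes were, and 3 (6.52%) were called higher, where 25.5% of all genes were. The median log2 fold change was -0.12 over the members and 0.01 over all tested genes. Scaled by library totals alone, which moves the median of all genes by 0.10, the split was 16 lower and 8 higher. Shares of all tested genes called under that scaling are not given here, so its counts cannot be set against 26.5% and 25.5%. CPM values give the share of a gene in the RNA, so fewer cells with a transcript and less of it in each cell cannot be told apart.

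**Figure D1:**
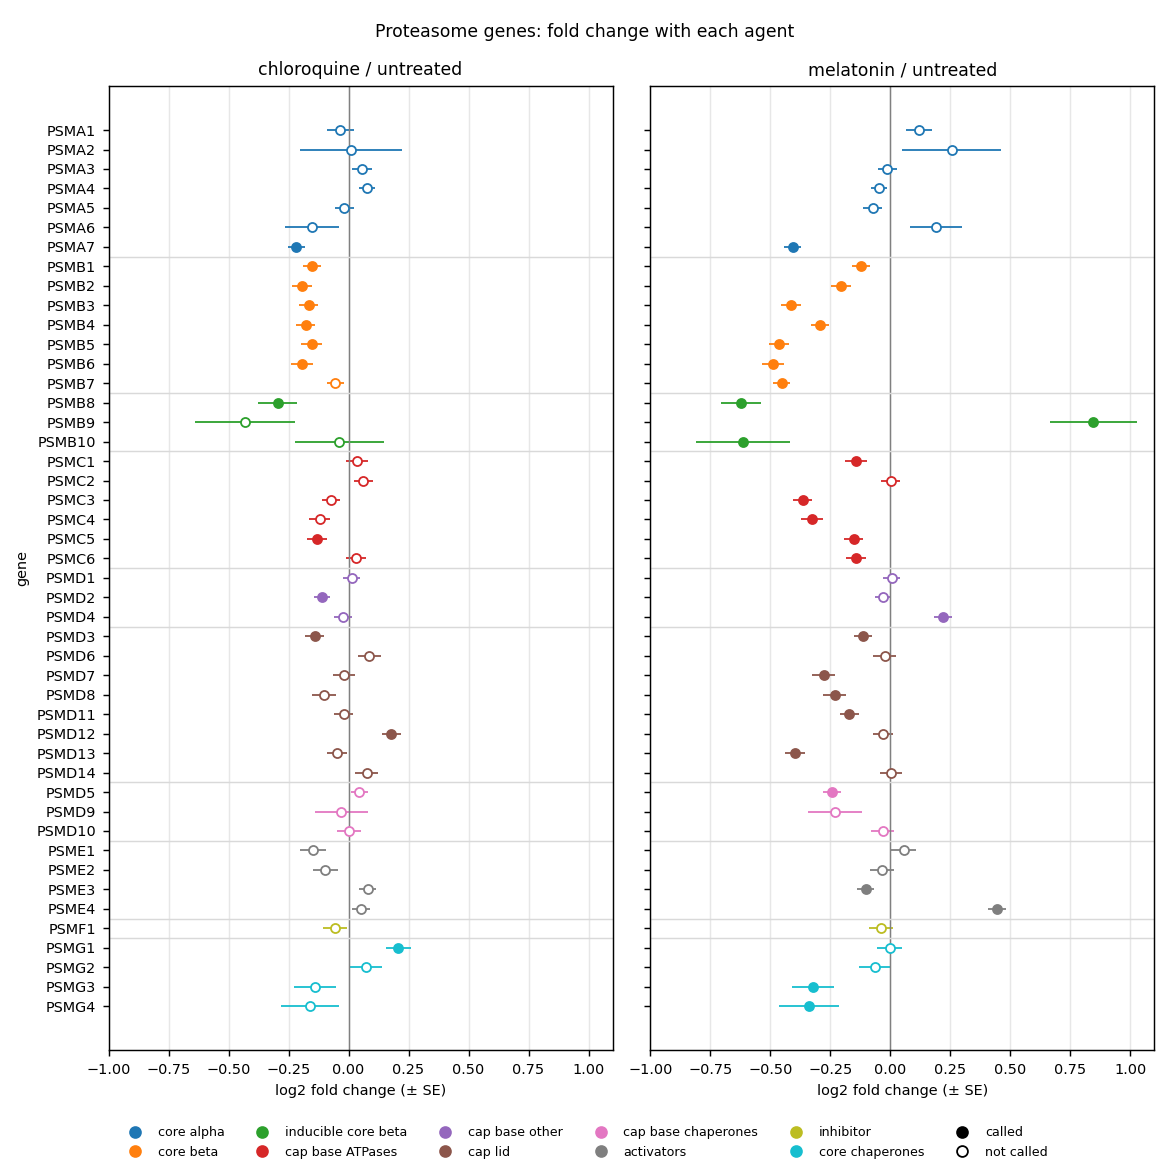
Log2 fold change (x axis, ± SE from the edgeR fit) of each of the 46 proteasome genes (y axis, grouped by role) with chloroquine (left) and melatonin (right) over untreated cells. Filled points were called at an adjusted p under 0.05. The 7 standard beta genes lie left of 0 in both panels and further left with melatonin, and PSMB9 and PSME4 stand to the right with melatonin.

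PSMB7, the subunit with the trypsin-like site, had 209 and 205 CPM in melatonin libraries, against 289 and 278 CPM in untreated libraries. PSMB6, the caspase-like subunit, had 96.9 and 91.4 CPM with melatonin, against 126 and 139 CPM untreated. PSMB5, the chymotrypsin-like subunit and the main target of proteasome inhibitors used in myeloma, had 82.8 and 82.4 CPM with melatonin, against 113 and 115 CPM untreated. For each of these catalytic subunits both melatonin libraries lay below both untreated libraries. The log2 fold changes were -0.45 ± 0.04 for PSMB7, -0.49 ± 0.05 for PSMB6 and -0.46 ± 0.04 for PSMB5 (SE, n = 2 each), with adjusted p-values of 2.53e-11, 1.19e-09 and 5.84e-10. Of the beta subunits without an active site, PSMB3 had 145 and 144 CPM with melatonin, against 188 and 196 CPM untreated, a log2 fold change of -0.41 ± 0.04 with an adjusted p of 1.18e-09. PSMB4 fell by 0.29, PSMB2 by 0.21 and PSMB1 by 0.12 on the log2 scale. The PSMB1 call was lost without untreated library 2, and PSMB1 was the gene of the 7 that was not called under library totals alone.

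In the alpha ring, only PSMA7 of 7 genes was called lower with melatonin, and the median over the 7 was -0.01. PSMA7 had 218 and 209 CPM with melatonin, against 279 and 287 CPM untreated, and its log2 fold change was -0.41 ± 0.04 (adjusted p = 2.39e-10). Both melatonin libraries lay below both untreated libraries. The other alpha genes had log2 fold changes between -0.07 (PSMA5) and 0.26 (PSMA2), and none passed the test. Under library totals alone PSMA1 and PSMA6 were called higher, and with offsets for GC content and transcript length PSMA3, PSMA4 and PSMA5 were called lower.

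The inducible beta subunits went in opposite directions with melatonin. PSMB9 had 7.47 and 8.63 CPM with melatonin, against 4.47 and 4.42 CPM untreated, from counts of 183 and 143, against 73 and 80. PSMB8 had 20.0 and 18.7 CPM with melatonin, against 30.7 and 29.1 CPM untreated. PSMB10 had 3.55 and 2.96 CPM with melatonin, against 4.53 and 5.53 CPM untreated, from counts of 87 and 49, against 74 and 100. Both melatonin libraries were above both untreated libraries for PSMB9 and below both for PSMB8 and PSMB10. PSMB9 rose by 0.85 ± 0.18 on the log2 scale (adjusted p = 0.000276), which is 1.80-fold. PSMB8 had a log2 fold change of -0.62 ± 0.08 (adjusted p = 3.38e-07) and PSMB10 one of -0.61 ± 0.20 (adjusted p = 0.0104). The PSMB10 call was lost without melatonin library 2, without untreated library 2 and with the GC and length offsets (-0.29). PSMB10 shares 34.8% of its exon bases with another gene on the same strand, which held 280 counts against 504 for PSMB10, so reads could be split between them.

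Per length, PSMB9 stood at 0.0364 and 0.0445 of the level of PSMB6 with melatonin, against 0.0168 and 0.0150 in untreated cells. The mean ratio was 2.55 times as high with melatonin. PSMB8 stood at 0.142 and 0.134 of PSMB5 with melatonin, against 0.161 and 0.149 untreated, and PSMB10 at 0.0164 and 0.0139 of PSMB7 with melatonin, against 0.0151 and 0.0192 untreated. In both melatonin libraries the PSMB9 ratio thus lay above the untreated ratios and the PSMB8 ratio below them, while the PSMB10 ratios overlapped. With chloroquine the ratios were 0.0104 and 0.0165 for PSMB9 to PSMB6, 0.141 and 0.139 for PSMB8 to PSMB5 and 0.0160 and 0.0187 for PSMB10 to PSMB7. Of these, only the PSMB8 ratios lay apart from the untreated ones, below them. Each ratio is a description, because 2 libraries a group cannot reach an exact permutation p under 0.05.

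**Figure D2:**
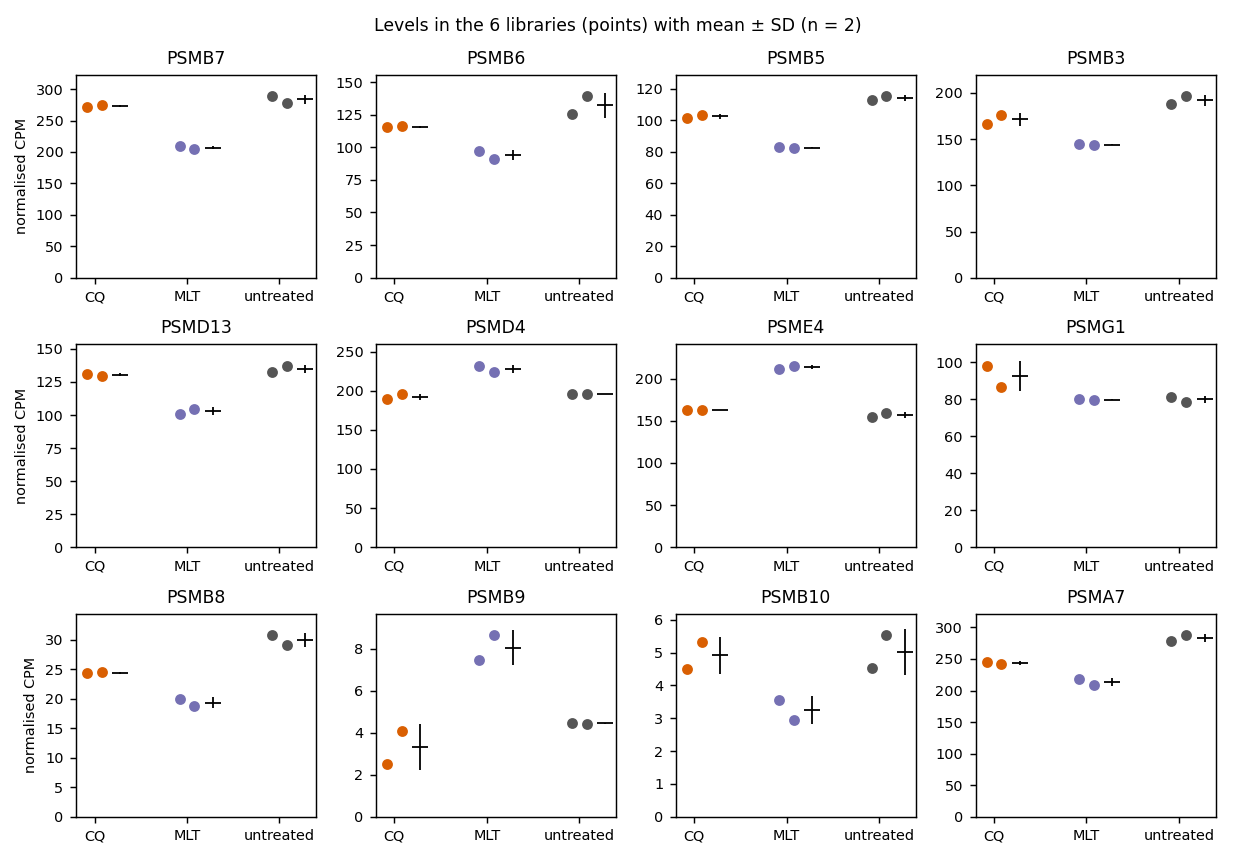
Normalised CPM (y axis, from 0) of 12 proteasome genes in chloroquine (CQ), melatonin (MLT) and untreated libraries. Each point is a library, and the bar beside the points is the mean ± SD (n = 2). The melatonin points of PSMB3, PSMB5, PSMB6, PSMB7, PSMB8 and PSMD13 lie below the untreated points, and those of PSMB9, PSMD4 and PSME4 above them.

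By GENCODE 29 on GRCh38, PSMB9 lies on chromosome 6 from 32844136 to 32859585 on the plus strand and PSMB8 from 32840717 to 32844703 on the minus strand. The start sites of PSMB9 and of the peptide transporter gene TAP1 lie 488 bases apart on opposite strands of chromosome 6, and PSMB8 starts 9513 bases from PSMB9. TAP1 had 47.3 and 46.8 CPM with melatonin, against 31.4 and 33.2 CPM untreated, and its log2 fold change was 0.54 ± 0.07 (adjusted p = 2.59e-07). With chloroquine TAP1 had 33.2 and 30.8 CPM, and the change of -0.01 did not pass the test (adjusted p = 0.930). Both genes of this divergent pair were thus higher with melatonin and neither was called with chloroquine. PSMB8 and PSMB9 also share 139 exon bases on opposite strands, and the strand setting of the counting is not given in the sources used here.

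Of the cap ATPases, which unfold the substrate, 5 of 6 were called lower with melatonin, where 26.5% of all tested genes were. PSMC3 had 147 and 142 CPM with melatonin, against 185 and 188 CPM untreated, and PSMC4 had 76.4 and 78.7 CPM, against 97.9 and 96.3 CPM. Neither pair of groups overlapped, and the log2 fold changes were -0.37 ± 0.04 and -0.33 ± 0.05 (adjusted p = 4.34e-09 and 6.84e-07). PSMC1, PSMC5 and PSMC6 were lower by 0.14 to 0.15, and PSMC2 was at 0.00. The calls of PSMC1 and PSMC6 were lost without melatonin library 1 and without untreated library 2. Under library totals alone 2 ATPases were called lower and PSMC2 was called higher. PSMC1 overlaps NRDE2 on the opposite strand over 75.8% of its exon bases and PSMC5 overlaps FTSJ3 over 19.5%, so their values are uncertain.

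In the lid, which removes ubiquitin, 5 of 8 genes were called lower with melatonin, where 26.5% of all tested genes were. PSMD13 had 101 and 105 CPM with melatonin, against 133 and 137 CPM untreated, without overlap, and its log2 fold change was -0.40 ± 0.04 (adjusted p = 5.90e-09). PSMD7, PSMD8, PSMD11 and PSMD3 were lower by 0.28, 0.23, 0.17 and 0.11. PSMD3 and PSMD8 were not called with the offsets (-0.02 and -0.07), PSMD3 lost its call without melatonin library 1 and without untreated library 1, and under library totals alone 3 of the 8 lid genes were called lower. PSMD14, the deubiquitinase of the lid, had 121 and 127 CPM with melatonin, against 117 and 131 CPM untreated. Its groups overlapped and its log2 fold change was 0.00 (adjusted p = 0.974), but with the GC and length offsets it was -0.30 and passed the test. PSMD14 had the lowest GC content of the members, 32% in its longest transcript. PSMD6 and PSMD12 were at -0.02 and -0.03, and did not pass the test. With the offsets they were called lower, at -0.23 and -0.24.

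PSMD4, a ubiquitin receptor of the cap, rose with melatonin. It had 232 and 224 CPM with melatonin, against 196 and 196 CPM untreated, and the groups did not overlap. Its log2 fold change was 0.22 ± 0.04 (adjusted p = 1.07e-05) and was 0.36 with the offsets. The scaffold subunits PSMD1 and PSMD2 had log2 fold changes of 0.01 and -0.03, and neither passed the test. PSMD2 was called higher with the offsets (0.09).

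Among the activators, PSME4 rose and the interferon-induced pair did not pass the test. PSME4, on chromosome 2 from 53864067 to 53970840, encodes a nuclear activator that caps the core without ATP and is known for degradation of acetylated histones, and had 212 and 215 CPM with melatonin, against 154 and 159.6 CPM untreated. Both melatonin libraries lay above both untreated libraries, and the log2 fold change was 0.44 ± 0.04 (adjusted p = 7.97e-11), or 0.25 with the offsets. PSME1 and PSME2, which form a ring that opens the core for peptides, had 78.1 and 81.5 and 87.6 and 89.8 CPM with melatonin, against 74.0 and 79.2 and 84.7 and 96.7 CPM untreated. Their log2 fold changes were 0.06 and -0.04 (adjusted p = 0.414 and 0.597), and the groups of both genes overlapped. With the offsets PSME1 was called higher (0.22). PSME3, the nuclear relative of that pair, had 203 and 208 CPM with melatonin, against 219 and 222 CPM untreated, a fall by 0.10 (adjusted p = 0.0186) that was lost without melatonin library 1 and without untreated library 2. PSMF1, which inhibits the core in vitro, had 79.95 and 86.0 CPM with melatonin, against 87.2 and 83.0 CPM untreated, and its change of -0.04 did not pass the test.

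The chaperones that build the core were lower only in part with melatonin. PSMG3 had 16.9 and 17.3 CPM with melatonin, against 21.6 and 21.2 CPM untreated, and PSMG4 had 8.53 and 10.6 CPM, against 11.9 and 11.9 CPM. These partners in alpha ring assembly had log2 fold changes of -0.32 ± 0.09 and -0.34 ± 0.12 (adjusted p = 0.00306 and 0.0245), and neither was called with the offsets (-0.05 and -0.28). PSMG1 and PSMG2, the other assembly pair, had 80.1 and 79.5 and 42.6 and 42.5 CPM with melatonin, against 81.4 and 78.7 and 43.2 and 45.8 CPM untreated, and neither passed the test. PSMG4 was also lost without melatonin library 1 and without either untreated library. Of the chaperones of the cap base, PSMD5 had 162 and 167 CPM with melatonin, against 193 and 197 CPM untreated, a log2 fold change of -0.24 ± 0.04 (adjusted p = 3.11e-06). PSMD9 had 11.4 and 10.4 CPM, against 12.5 and 13.2 CPM, and PSMD10 had 81.3 and 86.4 CPM, against 83.1 and 87.9 CPM. Neither passed the test, at -0.23 (adjusted p = 0.0860) and -0.03 (adjusted p = 0.605).

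With chloroquine the changes were smaller: the median absolute log2 fold change of the members was 0.08 with chloroquine and 0.18 with melatonin, and 0.16 and 0.31 over all tested genes. Of the 46, 11 (23.9%) were called lower, where 10.7% of all tested genes were, and 2 (4.35%) were called higher, where 9.55% of all genes were. The median log2 fold change was -0.04 over the members and 0.00 over all genes. The core held 8 of the 11 lower calls, and 6 of the 7 standard beta genes were among them, with a median of -0.17 over the 7. With the GC and length offsets 5 members were called lower and 1 higher, where 950 and 872 of the 16877 tested genes were. Without the offsets 1803 and 1612 of those genes were called lower and higher. With the offsets 3 of the 7 standard beta genes were called lower. Without chloroquine library 1, and likewise without untreated library 2, 2 of the 7 were called lower.

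PSMB8 had 24.3 and 24.5 CPM with chloroquine, against 30.7 and 29.1 CPM untreated, and PSMA7 had 246 and 241 CPM, against 279 and 287 CPM. PSMB6 had 115 and 116 CPM with chloroquine, against 126 and 139 CPM untreated. For all 3 genes both chloroquine libraries lay below both untreated libraries. The log2 fold changes were -0.30 ± 0.08 for PSMB8, -0.22 ± 0.04 for PSMA7 and -0.19 ± 0.05 for PSMB6 (adjusted p = 0.00879, 6.04e-05 and 0.00306). PSMA7 kept its call when any library was left out, PSMB8 lost it without either chloroquine library or untreated library 1, and PSMB6 lost it without untreated library 2. With the offsets none of the 3 was called, at -0.23, -0.10 and -0.09.

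PSMB2 had 185 and 179.7 CPM with chloroquine, against 206 and 211 CPM untreated, PSMB4 had 252 and 265 CPM, against 283 and 302 CPM, and PSMB3 had 166 and 177 CPM, against 188 and 196 CPM. In each gene the chloroquine libraries were below the untreated ones, and the log2 fold changes were -0.19, -0.18 and -0.17 (adjusted p = 0.00161, 0.00107 and 0.00299). The call of PSMB2 was lost without chloroquine library 2 and that of PSMB4 without chloroquine library 1. The calls of PSMB1, PSMB3 and PSMB5 were lost without chloroquine library 1 and without untreated library 2. PSMB1, PSMB2 and PSMB4 were called with the offsets as well, and PSMB3 was not (-0.07). PSMB5 had 101 and 103 CPM with chloroquine and fell by 0.15 (adjusted p = 0.00923), but by 0.10 with the offsets, where it was not called. PSMB7 had 271 and 274 CPM with chloroquine, and its change of -0.06 did not pass the test (adjusted p = 0.304). PSMB9 and PSMB10 had 2.53 and 4.08 and 4.51 and 5.32 CPM with chloroquine, and their changes of -0.43 and -0.04 did not pass the test (adjusted p = 0.156 and 0.922). PSMB9 was at -0.12 without chloroquine library 1, and at -0.81 and called lower without chloroquine library 2.

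The cap was called lower with chloroquine at PSMC5, PSMD2 and PSMD3, by 0.13, 0.11 and 0.14, and PSMC5 alone of these was called with the offsets. PSMD2 lost its call without any 1 of the chloroquine or untreated libraries, PSMC5 without chloroquine library 2 or either untreated library, and PSMD3 without chloroquine library 2 or untreated library 1. The lid subunit PSMD12 had 170.3 and 165 CPM with chloroquine, against 143 and 153 CPM untreated, and the core chaperone PSMG1 had 98.0 and 86.5 CPM, against 81.4 and 78.7 CPM. Both chloroquine libraries were higher for each, and the log2 fold changes were 0.18 ± 0.04 and 0.21 ± 0.05 (adjusted p = 0.00226 and 0.00504). With the offsets PSMG1 was called (0.19) and PSMD12 was not (0.05). Without chloroquine library 1 neither was called, since PSMG1 lost its call without that library or untreated library 2, and PSMD12 without chloroquine library 1 or untreated library 1. PSMD14, PSMD4 and PSMD5 had 128 and 134, 189.7 and 195 and 199 and 203 CPM with chloroquine, and none passed the test.

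No activator passed the test with chloroquine. PSME1, PSME2, PSME3 and PSME4 had 72.7 and 65.7, 85.1 and 84.8, 231 and 234 and 163 and 163 CPM, with log2 fold changes of -0.15, -0.10, 0.08 and 0.05 (adjusted p = 0.0570, 0.209, 0.125 and 0.384). PSME1 was called lower without chloroquine library 1, untreated library 1 or either melatonin library, and PSME2 without untreated library 1 (-0.19). PSME1 was also called lower with a mean count of at least 50 as the filter and with the 2 groups fitted alone. The inhibitor PSMF1 had 81.4 and 82.1 CPM with chloroquine and a log2 fold change of -0.06. The core chaperones PSMG2, PSMG3 and PSMG4 had 44.9 and 48.8, 19.4 and 19.4 and 11.2 and 10.1 CPM, and the cap base chaperones PSMD9 and PSMD10 had 13.2 and 12.0 and 84.2 and 87.2 CPM. The log2 fold changes of these 6 genes lay between -0.16 (PSMG4) and 0.07 (PSMG2), and none passed the test.

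Set against each other, the agents differed at more members than chloroquine did from untreated cells. Of the 46, 21 (45.7%) were called higher with chloroquine than with melatonin, where 24.0% of all tested genes were, and 7 (15.2%) were called lower, where 23.1% of all genes were. The median was 0.13 over the members and 0.00 over all genes. The comparisons with untreated cells share their control libraries, while the direct comparison uses none of them as a reference. Scaled by library totals alone, 14 members were called higher and 10 lower, and DESeq2 called 19 higher and 4 lower. The shares of all tested genes under these alternatives are not given here.

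PSMB7 had 271 and 274 CPM with chloroquine, against 209 and 205 CPM with melatonin, and a log2 fold change of 0.40 ± 0.04 (adjusted p = 4.14e-10). PSMB5 had 101 and 103 CPM with chloroquine, against 82.8 and 82.4 CPM with melatonin, and PSMB6 had 115 and 116 CPM, against 96.9 and 91.4 CPM. The chloroquine libraries were higher for all 3 catalytic subunits, with log2 fold changes of 0.31 and 0.29 for PSMB5 and PSMB6 (adjusted p = 9.30e-07 and 8.15e-06). PSMD13 had 131 and 129.8 CPM with chloroquine, against 101 and 105 CPM with melatonin (log2 fold change 0.35, adjusted p = 6.73e-08). PSMB8 and PSMB10 were higher with chloroquine by 0.33 and 0.58 (adjusted p = 0.00191 and 0.0160), and the PSMB10 call was lost without chloroquine library 2, without melatonin library 2 and with the offsets (0.44).

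The largest differences in the other direction were at PSMB9 and PSME4. PSMB9 had 2.53 and 4.08 CPM with chloroquine, against 7.47 and 8.63 CPM with melatonin, and PSME4 had 163 and 163 CPM, against 212 and 215 CPM. The groups did not overlap, and the log2 fold changes were -1.28 ± 0.19 and -0.39 ± 0.04 (adjusted p = 1.94e-06 and 9.18e-10). PSMD4 had 189.7 and 195 CPM with chloroquine, against 232 and 224 CPM with melatonin, and PSME1 had 72.7 and 65.7 CPM, against 78.1 and 81.5 CPM, lower with chloroquine by 0.25 and 0.20 on the log2 scale (adjusted p = 2.36e-06 and 0.00264). PSMA6 had 12.2 and 11.6 CPM with chloroquine, against 16.1 and 13.8 CPM with melatonin, and PSMA1 had 63.6 and 59.5 CPM, against 70.1 and 66.6 CPM, with log2 fold changes of -0.34 and -0.15 (adjusted p = 0.00975 and 0.0196). Both lost their call without chloroquine library 2 and without melatonin library 1, and PSME1 lost it without chloroquine library 2. PSMD2 passed the test narrowly (log2 fold change -0.08, adjusted p = 0.0499) and did not pass it when any 1 of the 6 libraries was left out.

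Members of higher GC content tended to have lower fold changes with both agents. Across the 46 genes, which share the libraries, Spearman's rho of the log2 fold change with GC content was -0.54 with chloroquine and -0.57 with melatonin, and -0.43 and -0.34 over all tested genes. With transcript length it was 0.39 and 0.43 over the members. The median GC content was 48.0% for the members and 48.2% for the tested genes. Offsets per library for GC content and transcript length kept 5 of 13 calls with chloroquine, 22 of 27 with melatonin and 25 of 28 in the direct comparison, and no call changed direction. With those offsets 26 members were called lower and 5 higher with melatonin, where 4172 and 3986 of the 16877 tested genes were. The standard beta ring remained lower at 7 of 7 genes, with a median of -0.29.

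**Figure D3:**
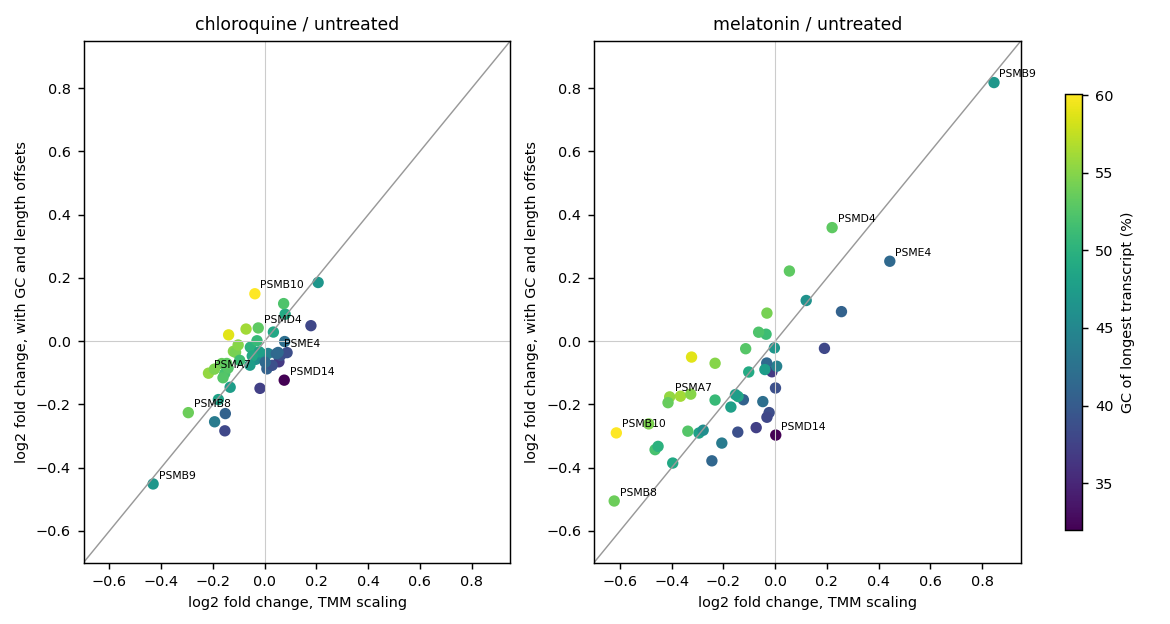
Log2 fold change of the 46 proteasome genes over untreated cells, scaled by TMM (x axis) and with offsets for GC content and transcript length (y axis), for chloroquine (left) and melatonin (right). Colour gives the GC percentage of the longest transcript and the line marks equal values. GC-rich genes such as PSMB10 (60.1%) lie above the line and PSMD14 (32%) lies below it, and PSMB9, PSMB8, PSMD4 and PSME4 keep their direction with melatonin.

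Levels per kb of exon, scaled to the same total in every library (TPM), differed widely between subunits that are built into the proteasome in equal number. PSMB3 (590 ± 21.0), PSMA7 (586 ± 14.7), PSMB7 (575 ± 11.9) and PSMB4 (491 ± 25.1) were the highest in untreated cells by merged exon length (SD, n = 2). By the length of the longest transcript the order was PSMB7 (778.5), PSMA7 (745), PSMB3 (669) and PSMB6 (409), with PSMB4 at 381. With merged exon length the spreads of PSMB3, PSMA7 and PSMB7 overlapped. The lowest alpha subunits were PSMA2 at 2.64 ± 0.486 and PSMA6 at 7.36 ± 0.554, against 69.2 ± 0.991 for PSMA1, the next in order. PSMA2 and PSMA6 share 14.6% and 14.1% of their exon bases with a same-strand gene, and pseudogenes of PSMA6 held counts equal to 11.2% of its own. The same-strand genes held 5 and 27 counts, against 479 for PSMA2 and 1550 for PSMA6. PSMA1 shares 24.7% of its exon bases with a same-strand gene that held 2 counts, against 7424 for PSMA1. Reads could be split between these genes, which was not tested, so the levels of PSMA1, PSMA2 and PSMA6 are uncertain. The standard core without PSMA2 and PSMA6 had 8 of 12 genes called lower with melatonin and 7 of 12 with chloroquine. Among all tested genes 26.5% and 10.7% were. PSMB8 (36.2 ± 1.21), PSMB10 (9.83 ± 1.42) and PSMB9 (5.24 ± 0.0159) were below every standard beta subunit, the lowest of which was PSMB2 at 156 ± 3.02.

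**Figure D4:**
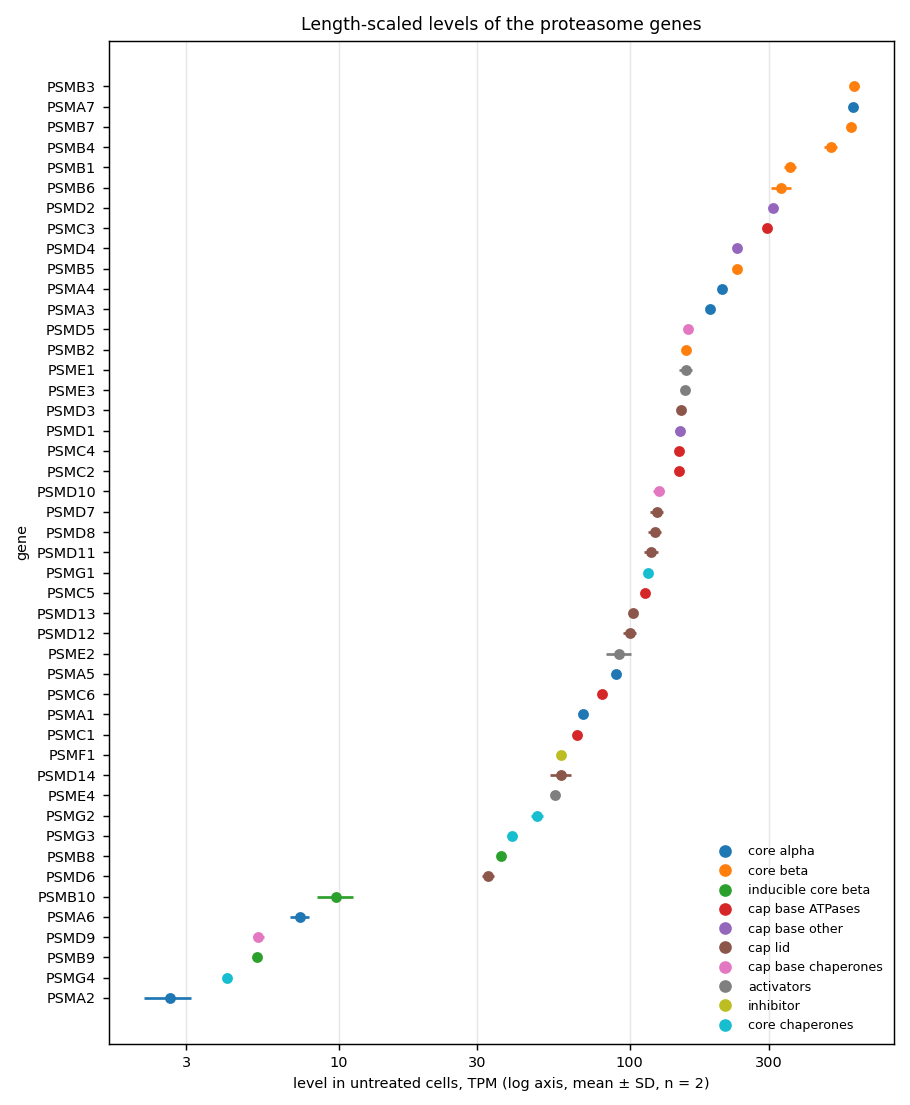
Level of each of the 46 proteasome genes in untreated cells, in TPM from merged exon length (x axis, log scale, mean ± SD, n = 2), in order of level (y axis) and coloured by role. PSMB3, PSMA7 and PSMB7 stand at the top, and PSMA2, PSMG4, PSMB9, PSMD9, PSMA6 and PSMB10 lie under 10.

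Of 16 other parts and partners, 7 were called lower and 3 higher with melatonin, and 2 higher and 0 lower with chloroquine, with medians of -0.08 and 0.00. Among all tested genes, 26.5% were called lower and 25.5% higher with melatonin, and 10.7% lower and 9.55% higher with chloroquine. With the offsets 9 were called lower and 2 higher with melatonin, and 2 lower and 0 higher with chloroquine. UCHL5, a deubiquitinase of the cap, had 132 and 137 CPM with chloroquine, 92.0 and 98.5 CPM with melatonin and 117 and 118 CPM in untreated cells, with no overlap between groups. Its log2 fold changes were 0.20 with chloroquine (adjusted p = 0.00122) and -0.30 with melatonin (adjusted p = 1.41e-06), and the direct difference was 0.50 (adjusted p = 1.63e-10). With the offsets it was not called with chloroquine (0.02). POMP, which matures the core, was higher by 0.19 with chloroquine and 0.12 with melatonin (adjusted p = 0.00446 and 0.0315), and was called with neither under the offsets (0.04 and 0.01). The ubiquitin receptor ADRM1 was at -0.20 with melatonin (adjusted p = 0.0146), where the offsets gave 0.20 and the opposite call. The shuttles RAD23B and UBQLN4 were at -0.14 and -0.24 with melatonin (adjusted p = 0.00174 and 4.17e-05), of which RAD23B was called with the offsets (-0.27) and UBQLN4 was not. RAD23B was at 0.23 in chloroquine over melatonin (adjusted p = 4.02e-06). The small lid subunit SEM1 did not pass the test with either agent (-0.03 and -0.05).

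Of 13 genes of the NFE2L1 pathway and related factors, 7 were called higher and 1 lower with melatonin, and 3 higher and 1 lower with chloroquine. The list also holds NFE2L2, KEAP1, BACH1, MAFG, MAFF and MAFK. It mixes activators and repressors, so its counts give no direction of pathway activity. Over all tested genes, 25.5% were called higher and 26.5% lower with melatonin, and 9.55% higher and 10.7% lower with chloroquine. With the offsets 4 of the 13 were called higher and 1 lower with melatonin, and 3 higher and 0 lower with chloroquine. NFE2L1 itself had 276 and 268 CPM with melatonin, against 249.7 and 245 CPM untreated, a log2 fold change of 0.14 ± 0.04 (adjusted p = 0.00175). With chloroquine it had 239 and 237 CPM and did not pass the test (-0.06, adjusted p = 0.297). BACH1, a repressor at antioxidant response elements, had log2 fold changes of 0.36 with chloroquine and 0.43 with melatonin (adjusted p = 0.000494 and 1.01e-05), and both calls held with the offsets. KEAP1, the adaptor that sends NFE2L2 to degradation, was at -0.24 and -0.43 (adjusted p = 0.0103 and 5.00e-06), and was called with neither under the offsets. VCP, the segregase that extracts ubiquitinated proteins from membranes, had 372 and 372 CPM with melatonin, against 331 and 332 CPM untreated. Its log2 fold change was 0.17 with melatonin (adjusted p = 0.000146) and 0.21 with the offsets. In chloroquine over melatonin VCP was at -0.18 and its cofactor UFD1 at -0.20 (adjusted p = 5.98e-05 and 0.00412), and both calls held with the offsets. NGLY1, which removes glycans from NFE2L1, was higher with melatonin (0.29, adjusted p = 0.000140), and DDI2, the protease that cleaves NFE2L1, was higher with chloroquine (0.17, adjusted p = 0.0190). Neither of these was called in that direction with the offsets.

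Of 6 ubiquitin and ubiquitin-activating genes, 5 were called lower with melatonin, and 2 lower and 1 higher with chloroquine. The shares over all tested genes were 26.5% lower with melatonin, and 10.7% lower and 9.55% higher with chloroquine. With the offsets 3 of the 6 were called lower with melatonin, and 0 lower and 2 higher with chloroquine. UBA1, the main ubiquitin-activating enzyme, had 808 and 788 CPM with chloroquine, 784 and 801 CPM with melatonin and 915 and 922 CPM untreated, with log2 fold changes of -0.20 and -0.21 (adjusted p = 4.77e-05 and 3.87e-06). It was called with neither under the offsets (-0.09 and -0.03). UBA6, the other ubiquitin-activating enzyme, was higher with chloroquine (0.14, adjusted p = 0.0120) and was not called with the offsets (-0.04). The polyubiquitin gene UBB was at 0.16 in chloroquine over melatonin (adjusted p = 0.000553). RPS27A, a ubiquitin fusion gene, was at -0.25 with melatonin (adjusted p = 4.83e-07).

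Of 12 genes of interferon control and peptide loading, 7 were called higher and 4 lower with melatonin, and 2 higher and 2 lower with chloroquine. The shares of all tested genes were 25.5% higher and 26.5% lower with melatonin, and 9.55% higher and 10.7% lower with chloroquine. With the offsets 7 were higher and 2 lower with melatonin, and 2 higher and 1 lower with chloroquine. ERAP1, which trims peptides, had log2 fold changes of 0.25 with chloroquine and 0.50 with melatonin (adjusted p = 0.0246 and 5.71e-06). Under the offsets ERAP1 was not called with chloroquine (0.14) and was called higher with melatonin (0.30). The class I gene HLA-B was lower with melatonin at -0.44 (adjusted p = 5.08e-07). With the offsets HLA-B was called as well (-0.18). Among the proteasome genes induced by interferon, PSMB9 rose with melatonin, PSMB8 and PSMB10 fell, and PSME1 and PSME2 did not pass the test.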

How the data were processed

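Poly(A) RNA of 6 MHCC97-H libraries was prepared with an Illumina TruSeq RNA kit, per the labels' protocols. The deposited table holds whole-number counts of reads per gene made by the authors with fastp trimming and the GRCh38 build, per the submitters' processing notes. No source used here gives the aligner, annotation release or strand setting. Symbols were found for 62639 genes and GENCODE 29 placed 58274, giving coordinates, exon lengths and GC content (known for 96.6% of tested genes).

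The counts were fitted with edgeR 4.0.16 in R 4.3.3: filterByExpr, TMM factors and the quasi-likelihood test over all 6 libraries with 1 term per group, with Benjamini-Hochberg adjustment over 16877 genes. The fit had 3 residual degrees of freedom and a common BCV (biological coefficient of variation) of 0.0315. Another 23.6 prior degrees of freedom came from the spread over all tested genes, so p-values and SEs rest mostly on that shared spread. SEs come from the F statistic. A count of 3 equals 0.123 to 0.184 CPM, and precision stated from counts covers counting error only. Levels per kb divide counts by merged exon length. Steps were tested on simulated data with planted changes larger than most of the member changes. The simulation used a single spread for all genes and no GC or length trend, so it does not cover calls of smaller size. Library totals, RLE factors, DESeq2 1.42.0, other filters, GC and length offsets, the replicate block and each left-out library were the alternatives.

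The members, gene lists and alternatives were chosen with earlier results of these data known. Values are given for up to 6 called members with the largest fold change in each direction of each comparison, a fixed set of catalytic, inducible, activator and chaperone genes, and up to 3 genes with the smallest p of each other list; other members given with values, such as PSMC3, PSMC4 and PSMB1, lie outside this rule and were named after their values were seen. Some genes that the rule covers are not reported here.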

Additional observations from a re-analysis of the deposited data

How the results depend on the processing

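The directions of the members called in the TMM fit over all 6 libraries did not change under any setting run. The counts of calls did change. PSMC2 was not called with melatonin in that fit, but was called higher under library totals alone and lower with the offsets (-0.15). With GC and length offsets, with or without the replicate block, chloroquine called 1 member higher and 5 lower, and DESeq2 called 1 and 7. Melatonin called 5 higher with either offset fit and 8 under library totals alone, and its median over the members was -0.17 with either offset fit and -0.0235 under library totals. In the direct comparison DESeq2 called 4 lower, and library totals gave a median of 0.0376. The replicate block alone left 2 higher and 11 lower with chloroquine, 3 and 24 with melatonin, and 21 and 6 between the agents. Libraries with equal replicate numbers showed no shared deviation across groups, as the correlations of deviations were -0.02, -0.01 and -0.04. These values cannot tell whether the numbers mark a shared batch, which the labels do not state.

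Leaving out a library gave 0 to 2 members higher and 5 to 13 lower with chloroquine, 3 to 4 higher and 18 to 24 lower with melatonin, and 17 to 22 higher and 3 to 6 lower between the agents. A lone library is then assumed to vary like the other groups. Lower calls with chloroquine were 6 without chloroquine library 1, 7 without chloroquine library 2 and 5 without untreated library 2, and higher calls were 0 without chloroquine library 1 and 1 without untreated library 1. Lower calls between the agents were 3 without chloroquine library 2 and 4 without melatonin library 1.

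Some genes changed sign, and the cause was not tested. With offsets, and with offsets and replicate block, melatonin gave -0.15 in both for PSMC2, 0.0887 and 0.0886 for PSMD2, -0.30 and -0.29 for PSMD14, 0.20 and 0.21 for ADRM1, -0.17 in both for DDI2, 0.0215 and 0.0231 for UBB and -0.27 in both for UBA6, which was at -0.0385 and -0.038 with chloroquine. UBA1 was at -0.0796 between the agents under library totals. Per length of the longest transcript, PSMD9 was at 11.3 in place of 5.30 and PSMA2 at 2.46 in place of 2.64. Counts under 200 a library for PSMB9 and PSMB10 limit their precision.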
